A study of Mus musculus with 2 samples.

Results

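Aminoacyl-tRNA synthetases attach each amino acid to its tRNA, so every protein a cell makes depends on them. Cytosolic enzymes serve the ribosomes of the cytoplasm. Most mitochondrial enzymes are encoded by separate nuclear genes whose symbols end in 2, and these supply the ribosomes inside the organelle. Gars and Kars each make both the cytosolic and the mitochondrial enzyme, and glutaminyl-tRNA of mitochondria is made by an amidotransferase instead of a synthetase of its own. Several cytosolic enzymes, among them Eprs, Iars, Lars, Qars, Rars, Kars and Dars, are joined in a multisynthetase complex.

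RNA Pol II contacts of 35 synthetase genes were examined, out of 22380 protein-coding genes of the GENCODE vM1 annotation of mm9. The genes were chosen from a list of names, and the set holds 19 cytosolic and 16 mitochondrial enzymes. It is not every synthetase gene, and Mars, for one, was left out.

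Contacts were measured by ChIA-PET, in which DNA bound by an antibody target is ligated so that 2 sites that lay together are read as the ends of 1 paired-end tag (PET). The antibody was against RNA Pol II (clone 8WG16). Both libraries came from mouse embryonic stem cells (ESCs) carrying CreERT2, a Cre recombinase that is active only with tamoxifen, and floxed alleles of Ronin (Thap11), a DNA-binding protein of the THAP family. Control cells (CreERT2; Roninflox/flox) had ethanol for 4 days and Ronin knockout cells of the same genotype had tamoxifen for 4 days, in medium with LIF. There was 1 library per condition, in which the authors had merged their experiments, so tests and intervals below compare 2 libraries and cover counting error only. Loss of Ronin and exposure to tamoxifen cannot be told apart.

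The control library held 156097 PETs in 128267 pairs of anchors and the knockout library 65276 PETs in 44328 pairs, an anchor being a region of the genome called as a peak. Pairs with a single PET made up 98.3% of control and 97.9% of knockout pairs. A few pairs with at least 10 PETs held 16.1% of control and 30.3% of knockout PETs, and Gm10800, a predicted gene in satellite DNA, alone had 9614 and 7485. The knockout library therefore had 41.8% of the control PETs overall and 34.7% outside such pairs, and both figures were used to scale counts. All 8 genes typical of pluripotent cells had PETs in both libraries, at counts of 23 to 194 in control and of 6 to 42 after knockout. Zfp42 (194 and 37) alone was called lower relative to the library total (adjusted p = 0.000158, exact binomial test described below). Of all genes tested, 3.63% were called lower. An unadjusted p under 0.05 (exact binomial test) was found at 2 of the 8 genes and at 17.4% of all genes tested. Absence of Ronin could not be checked, since contacts carry no measure of the protein. Thap11 itself had 109 control and 46 knockout PETs, which are contacts of its locus and not its expression.

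All 35 synthetase genes had RNA Pol II PETs in control cells, and 34 had them in knockout cells. A PET was counted for a gene when either end lay in an anchor within 1 kb of the gene. Summed over the genes there were 1837 control and 754 knockout PETs, 41% of control (exact 95% interval 37.7 to 44.7%), and without Lars2 1521 and 553, or 36.4% (32.9 to 40.1%). These sums count a pair for each synthetase gene it touches. With each pair counted once there were 1823 and 745 PETs, 40.9% of control (37.5 to 44.5%). Raw counts were lower in the knockout library at 32 genes, equal at Hars and higher at Mars2 and Iars2. The median gene had 32 control and 12 knockout PETs. The median of the knockout count as a percentage of control was 35% over the synthetase genes. It was 34.8% over those of the 12817 genes with PETs in either library that had control PETs.

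Whether more synthetase genes lay below the library totals than above them depended on the total used. Scaled to all PETs, 24 genes were lower and 11 higher in knockout cells (68.6% lower, against 60.7% of all genes with PETs). Scaled to PETs outside the pairs with at least 10 PETs, 17 were lower and 18 higher (48.6% lower, against 48.8% of all genes).

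**Figure D1:**
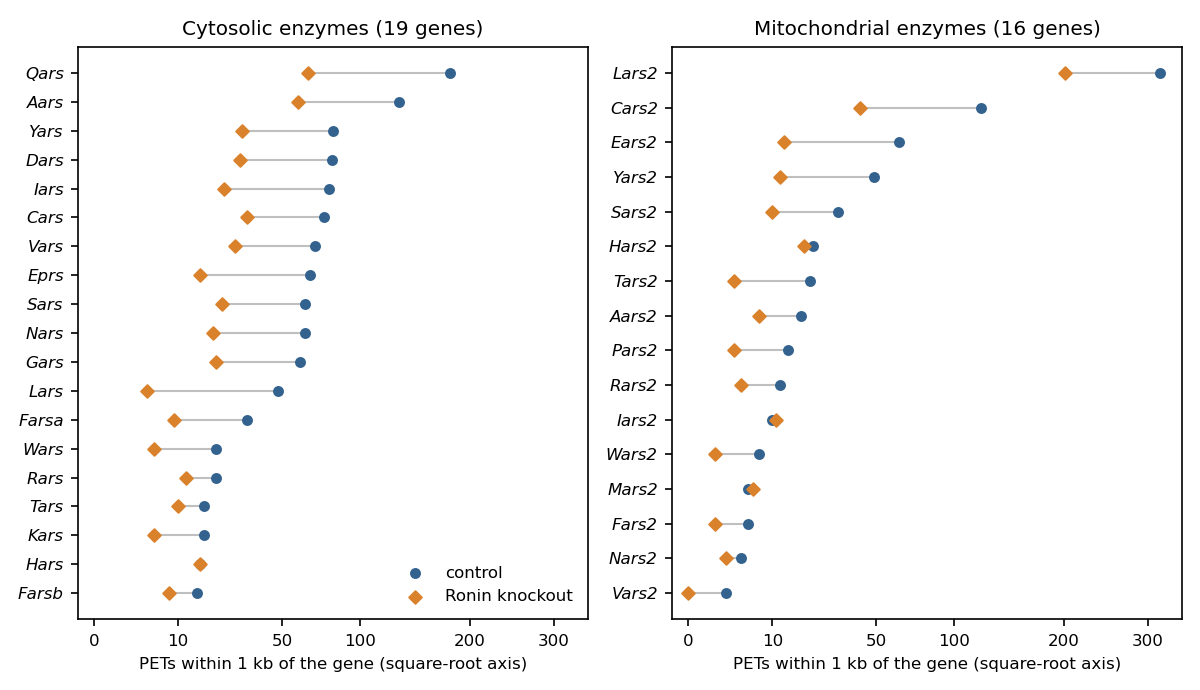
PETs of each synthetase gene in control (circles) and Ronin knockout (diamonds) libraries, 1 library each, on a square-root axis, with cytosolic enzymes on the left and mitochondrial enzymes on the right. The knockout diamond lies left of the control circle at 32 of 35 genes, and Lars2 and Qars have the most control PETs.

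Each gene with at least 10 PETs in both libraries together was tested with a two-sided exact binomial test against the knockout share of all PETs, with Benjamini-Hochberg adjustment over all 8973 genes tested. Of the 31 synthetase genes tested, 1 was called lower (Lars) and 1 higher (Lars2), where 3.63% of all genes tested were called lower and 2.85% higher. The same genes were called, Lars lower and Lars2 higher, against the knockout share outside pairs with at least 10 PETs, where 1.37% of all genes were called lower and 4.32% higher. Most Lars2 PETs were in pairs with at least 10 PETs, which that share leaves out, so its second call is not a separate result. All pairs of that kind together held 25160 control and 19791 knockout PETs. Vars2, Nars2, Fars2 and Wars2 had too few PETs to test.

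Among the cytosolic enzymes, Qars, the glutaminyl-tRNA synthetase, had the most PETs. Its 180 control PETs compared with 65 after knockout, 36.1% of control (26.8 to 48.2%). Its anchor was also the widest, at 92.9 kb in control cells, and covered the 5′ ends of 6 other genes (Dalrd3, Impdh2, Ndufaf3, Qrich1, Usp19 and Wdr6). PETs of that anchor cannot be assigned to one promoter. Aars, the alanyl-tRNA synthetase, followed with 132 in control and 59 in knockout cells, in an anchor that it shared with the 5′ end of Ddx19b. Neither gene passed the test against the library total (adjusted p = 0.721 and 0.953, exact binomial test).

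The next enzymes lay close together. Yars had 81 control and 31 knockout PETs, Dars 80 and 30, Iars 78 and 24, and Cars 75 and 33, in charge of tyrosine, aspartate, isoleucine and cysteine. Vars had 69 and 28, Eprs 66 and 16, Sars 63 and 23, Nars 63 and 20 and Gars 60 and 21. None of these was called, the lowest adjusted p being 0.29 at Eprs, which charges both glutamate and proline. Farsa had 33 and 9 PETs, and Farsb, which encodes the other subunit of the phenylalanyl-tRNA synthetase, 15 and 8. The remaining cytosolic genes were Rars (21 and 12), Wars (21 and 5), Kars (17 and 5) and Tars (17 and 10).

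Lars, the cytosolic leucyl-tRNA synthetase (chr18:42362004-42421781, minus strand), had 48 control and 4 knockout PETs, 8.33% of control (2.18 to 22.8%). This was the lowest share among the 34 synthetase genes with PETs in both libraries. It was called lower against the share of all PETs (adjusted p = 0.00535) and against the share outside the pairs with at least 10 PETs (adjusted p = 0.0282, exact binomial tests). In control cells 9 anchors lay along the gene, with 31 of the PETs at the anchor over its 5′ end. In knockout cells there was a single anchor, at the 5′ end, with all 4 PETs. The other control anchors had 1 to 5 PETs each. An anchor is counted here only where a PET links it, so the number of anchors is not a measure of RNA Pol II occupancy. At the 5′ end alone, 31 against 4 PETs did not pass the test (adjusted p = 0.145, exact binomial test). Of the control PETs of Lars 7 were intrachromosomal, and of its knockout PETs 0 were, which allows up to 3 such PETs.

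Hars, the histidyl-tRNA synthetase, and Hars2, its mitochondrial counterpart, are divergent neighbours on chromosome 18 with 1 anchor over both 5′ ends. Hars had 16 control and 16 knockout PETs, and Hars2 22 and 19. The shared anchor gave each gene 9 control and 7 knockout PETs, which are the same PETs. Their adjusted p-values were 0.159 and 0.19 (exact binomial test), so neither passed. Hars passed when anchors up to 5 kb from the gene were counted (adjusted p = 0.0334, exact binomial test). It was then called higher relative to the library total (1.26 on the log2 scale), where 5.97% of all genes tested were called in either direction.

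**Figure D2:**
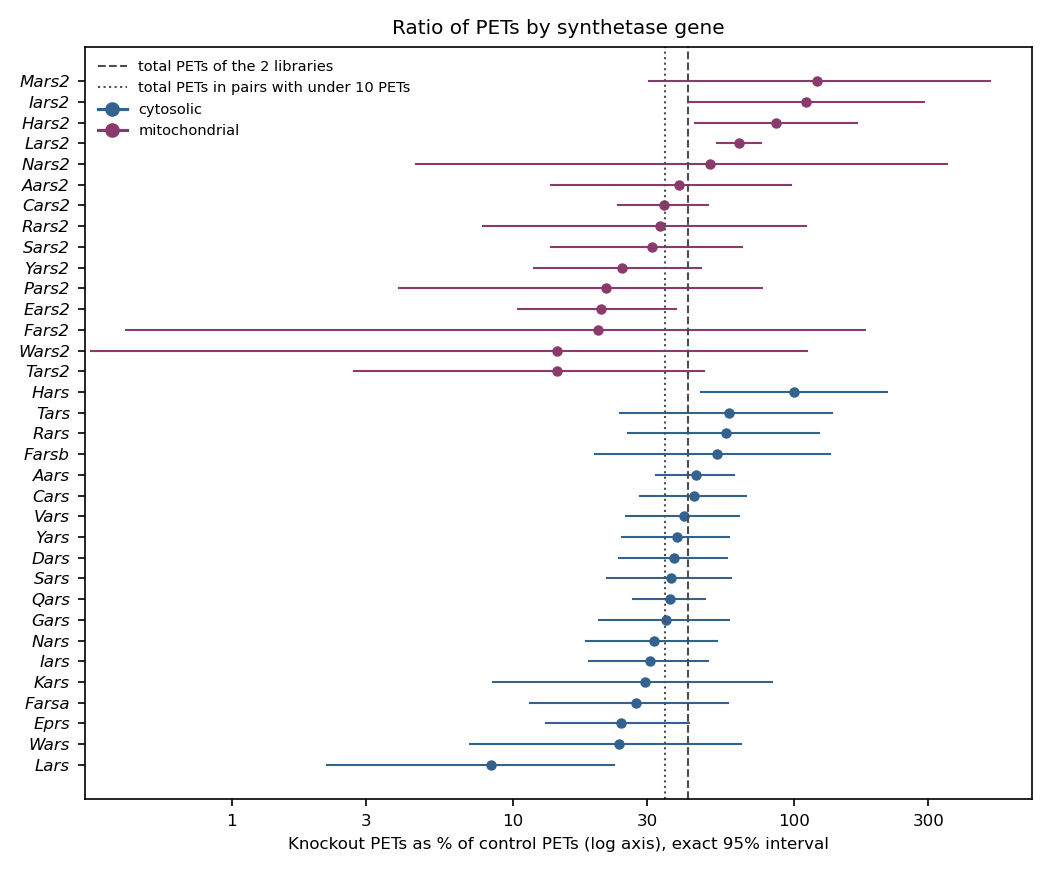
Knockout PETs as a percentage of control PETs for each synthetase gene, on a log axis, with exact 95% intervals of counting error. Vertical lines give the ratio of all PETs in the 2 libraries (41.8%) and of PETs in pairs with under 10 PETs (34.7%). The interval of Lars lies below both lines and those of Lars2, Hars, Hars2 and Iars2 above both, and Vars2, with 0 knockout PETs, is not drawn.

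Among the mitochondrial enzymes, Lars2, the mitochondrial leucyl-tRNA synthetase, had 316 control and 201 knockout PETs, 63.6% of control (53 to 76.2%; adjusted p = 0.000248, exact binomial test). The call is relative to the library total, and the raw count was lower in knockout cells. With equal libraries assumed the direction turned (-0.65 on the log2 scale) and Lars2 was called lower. Few of these PETs lay at its promoter. An anchor of 1.01 kb in its last exon (chr9:123370628-123371636) held 310 control and 199 knockout PETs, all interchromosomal, whereas the anchor over the 5′ end, 94.6 kb away, held 3 and 2. That exon (chr9:123370617-123371782) holds 177 bp of coding sequence and 989 bp of 3′ UTR. In control cells 160 of the PETs led to a single region without a protein-coding gene (chr6:49185510-49187055), 97 to Kpna1, 21 to Zc3h7a and 18 to Rimbp3.

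The last exon of Lars2 shared sequence with 3 of those partners, and no alignment was found for the Zc3h7a anchor. The region on chromosome 6 had a stretch of 168 bp at 98.8% identity to the Lars2 anchor, the Kpna1 anchor 167 bp at 97.6% and the Rimbp3 anchor 125 bp at 95.2%. Such partners held 275 of 310 PETs in control and 199 of 199 in knockout cells. In knockout cells the 3 partner anchors overlapped those of control cells, with 127, 57 and 15 PETs, but differed in extent. The chromosome 6 anchor then reached Tra2a, and the one at Rimbp3 no longer lay within 1 kb of a protein-coding gene. What part the shared sequence had in these counts was not tested.

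Cars2, Ears2 and Yars2, for cysteine, glutamate and tyrosine, had most or all of their PETs at an anchor over the 5′ end. Cars2 had 122 in control and 42 in knockout cells, with 117 and 39 at an anchor shared with Ing1. Ears2 had 63 and 13, all at an anchor shared with Ndufab1 and Ubfd1 in control cells (adjusted p = 0.148, exact binomial test). Yars2 had 49 and 12. None of the 3 was called.

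The other mitochondrial genes had few PETs. Sars2 had 32 in control and 10 in knockout cells, Tars2 21 and 3, Aars2 18 and 7, Pars2 14 and 3, and Rars2 12 and 4. The 2 genes with more PETs in knockout cells were Iars2 (10 and 11) and Mars2 (5 and 6), and neither passed the test (adjusted p = 0.213 and 0.404, exact binomial test). Wars2 had 7 and 1, Fars2 5 and 1, and Nars2 4 and 2. Vars2 had 2 and 0, and since a count of 0 allows up to 3, no fold was taken.

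The median count per gene was higher for cytosolic than for mitochondrial enzymes. It was 63 against 16 in control and 20 against 6.5 in knockout cells, and the ranges overlapped (15 to 180 against 2 to 316 in control, 4 to 65 against 0 to 201 in knockout cells). Their anchors were also wider, with a median covered length of 39.8 kb per cytosolic gene and 14.6 kb per mitochondrial gene in control cells. Per 10 kb of anchor the medians were 12.6 and 13 PETs in control and 4.94 and 4.97 in knockout cells. Across the 35 genes, covered length and PETs had a Spearman rho of 0.793 and a Pearson r of 0.403, and without Lars2 0.907 and 0.808. This describes genes of 1 library, which are not independent, and the part of anchor width in the counts was not tested.

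The knockout count relative to control was 36.9% for the cytosolic enzymes (1135 to 419 PETs, interval 32.9 to 41.3%) and 47.7% for the mitochondrial enzymes (702 to 335 PETs, 41.8 to 54.4%). The ratio of these ratios, mitochondrial over cytosolic, was 1.29 with an exact interval of 1.08 to 1.54, which lies above equality. That rested on Lars2, and it depends on which mitochondrial genes are counted, since the set does not hold all of them. Without this gene the mitochondrial count was 34.7% of control (386 to 134 PETs, 28.3 to 42.4%) and the ratio 0.94 (0.744 to 1.18), which includes equality.

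Counting only anchors within 1 kb of a gene's annotated 5′ end left out anchors farther along the gene, though an anchor over a 5′ end can be wide and cover other genes too. Such anchors held 80.1% of the control PETs of the cytosolic genes but 47.9% of those of the mitochondrial genes. There the knockout count was 38.3% of control for cytosolic enzymes (909 to 348 PETs, 33.7 to 43.4%) and 33% for mitochondrial enzymes (336 to 111 PETs, 26.4 to 41.1%), a ratio of 0.863 (0.667 to 1.11). A difference between the classes at 5′ ends was thus not detectable at this depth. At 5′ ends 0 of 30 synthetase genes tested were called and 3 had an unadjusted p under 0.05 (exact binomial test), where 7.15% of all 7047 genes tested this way were called and 16.8% had such a p.

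**Figure D3:**
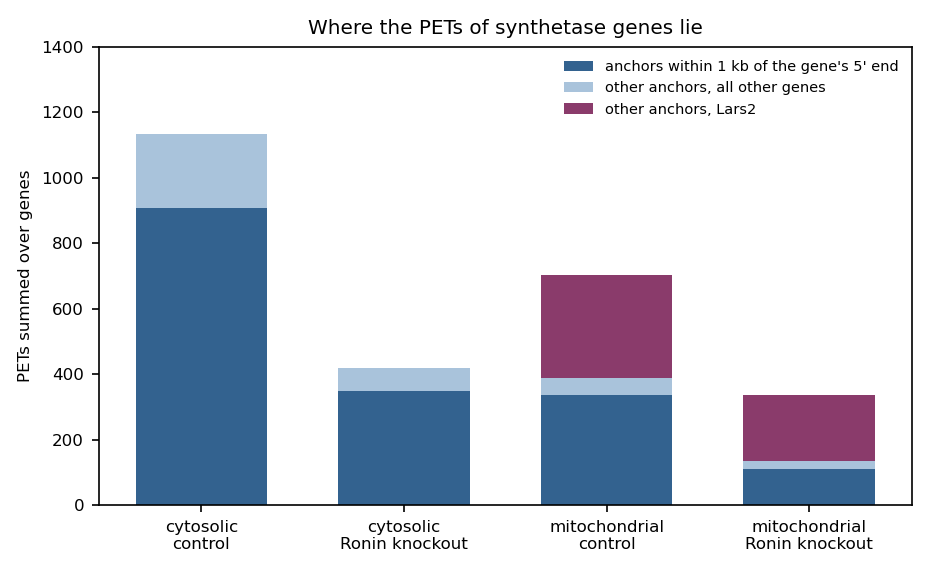
PETs summed over the genes of each class and library, split by whether the anchor lay within 1 kb of the gene's 5′ end. At 5′ ends the cytosolic genes had 909 and 348 PETs and the mitochondrial genes 336 and 111, and the Lars2 anchors elsewhere (313 and 199) made up most of the rest of the mitochondrial sum.

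**Figure D4:**
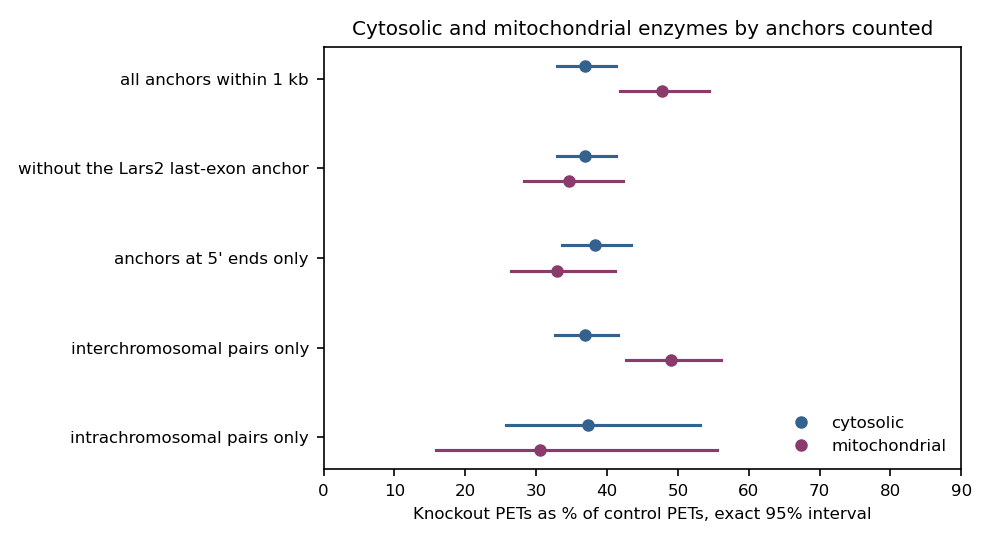
Knockout PETs as a percentage of control PETs, with exact 95% intervals, for cytosolic and mitochondrial enzymes under 5 ways of choosing anchors or pairs. The mitochondrial interval lies above the cytosolic one with all anchors and with interchromosomal pairs only (49% against 36.9%), and in the other 3 the mitochondrial value is below the cytosolic one and the intervals overlap.

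The PETs of Dars, the aspartyl-tRNA synthetase of the cytosol, lay mostly away from the 5′ end. Its 3′ anchor, shared with the replication helicase gene Mcm6 and with Lct, held 58 of 80 control and 18 of 30 knockout PETs, and its 5′ anchor 6 and 5. Iars, Eprs and Gars had PETs both at the anchor over the 5′ end (43, 36 and 40 in control) and at anchors farther along the gene (35, 30 and 20). All control PETs of Qars, Aars, Yars, Sars, Nars, Ears2 and Yars2 were at the anchor over the 5′ end. In all of these but Ears2 that anchor spanned the whole gene, so PETs at the 5′ end and along the gene cannot be told apart there. For 17 of the 35 genes a 5′ anchor in control cells also covered the 5′ end of another protein-coding gene, such as Mrps12 with Sars2, Fech with Nars, and S100pbp with Yars.

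A larger share of the pairs with a synthetase anchor than of pairs of other genes had 5′ ends at both sides. In control cells 59.9% of the 1503 synthetase pairs had a gene's 5′ end in both anchors (exact 95% interval 57.4 to 62.4%), against 46.6% (46.3 to 46.9%) of pairs of other protein-coding genes. In knockout cells it was 67% of 543 pairs (62.9 to 71%) against 51.3% (50.8 to 51.8%). Pairs that share an anchor are not independent, and the part of anchor width in this share was not tested. Intrachromosomal pairs were 10.2% of the synthetase pairs in control cells (8.7 to 11.8%) and 10.7% in knockout cells (8.21 to 13.6%), against 9.46% and 11.1% for other genes. There were 153 and 58 of them, of which 52 and 23 spanned under 1 Mb.

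Few synthetase pairs had more than 1 PET apart from those of Lars2. The paper defined high-confidence interactions by 3 independent PETs, which most pairs named here and below do not reach. Many anchors hold further genes that are not named, so a pair does not single out a gene. The Yars anchor was joined to that of Rbbp4, Sync and Zbtb8os, 53.7 kb away, by 3 PETs in control cells and 1 in knockout cells. The Cars2 and Ing1 anchor was joined to Ankrd10, 32.2 kb away, by 2 in each. Other intrachromosomal pairs with 2 control PETs linked Qars to Ccdc71 (17.5 kb), Sars2 to Actn4 and Eif3k (186 kb) and Yars2 to Top3b (533 kb). Farther apart were those of Gars with Tra2a (5767 kb), Aars2 with Hn1l (20566 kb) and Dars with Atg9a (55073 kb). Pairs with 2 control PETs also joined the Qars anchor to one at P4htm (3.14 kb) and the Yars anchor to one at C77080 (6.79 kb). The Qars and Yars anchors themselves already covered P4htm and C77080. None of these other pairs was found in the knockout library, where a count of 0 allows up to 3.

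In its Ronin data the paper left interchromosomal pairs out of later analyses, citing reports of more noise in them. Among such pairs here, those with 2 control PETs joined Yars to G3bp1, to Ash2l with Lsm1 and to Nxf1 with Stx5a. Others joined Aars to Btf3l4 and to Thoc4 with Sirt7, Cars2 to Csrnp2, Cars to Rps20, Gars to Naa25, Qars to Kntc1 with Rsrc2, and Vars to Hnrnpl and to Cdt1. In knockout cells pairs with 2 PETs joined the 3′ anchor of Dars, shared with Mcm6 and Lct, to anchors at Top3a and at Hmgb2. The first of these partners also covered Flii and Smcr7, and the second Scrg1, Sap30 and Galnt7. Other pairs with 2 knockout PETs joined Aars to Tgif1 and Gm1661. Anchors at Gm10800 or Gm10801 had 10 pairs with synthetase genes in control and 10 in knockout cells, each with up to 2 PETs.

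Of the 1503 control pairs, 25 (1.66%, exact 95% interval 1.08 to 2.45%) were found again in the knockout library with both anchors overlapping. The same share over all control pairs was not computed, so the value cannot be read as particular to synthetase genes. Of these 3 were Lars2 pairs and 5 touched Gm10800 or Gm10801. With so many pairs of a single PET, a pair missing from the smaller library does not show that the contact was lost.

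Few pairs joined synthetase genes to each other, and how many another set of genes of this size would have was not computed. In control cells 6 pairs joined anchors of 2 synthetase genes, each with 1 PET. One such pair linked the 3′ anchor of Dars, shared with Mcm6 and Lct, to the 3′ anchor of Kars, shared with Adat1. Others linked Eprs to Cars2, Lars to Yars and Ears2 to Lars2, and 2 lay within the Hars and Hars2 locus. In knockout cells 2 pairs did so, Aars with Qars and Yars with Ears2, and neither pair was among the control pairs.

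The promoters of the synthetase genes, taken as 250 bases before to 50 after the annotated 5′ end in the NCBIM37 (mm9) genome, were searched on both strands for a core of the Ronin-binding motif, TGGGANNTGTAGT. It was in 1 of the 35 (2.86%), that of Lars, 87 bases upstream of the 5′ end on the strand of the gene, and in 459 of 22380 promoters (2.05%). Of the 305 genes tested that have this core, 4.92% were called lower and 4.92% higher in knockout cells, against 3.59% and 2.78% of the 8668 without it. A match of letters is not a binding site, and Ronin binding was not measured in these libraries.

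A core of the element bound by ATF4 and C/EBP, TGATGNAA, through which amino acid shortage raises synthetase genes, was in 5 of 19 cytosolic promoters (26.3%; Gars, Cars, Iars, Tars and Nars), in 0 of 16 mitochondrial ones and in 817 of 22380 promoters (3.65%). The 5 genes together had 293 control and 108 knockout PETs, with a median of 35% of control, against 842 and 311 and a median of 37% for the other 14 cytosolic genes. The sequences below show the core in the 2 of these promoters where it lies upstream of the 5′ end. They are given 5′ to 3′ on the strand of the gene up to the base before its 5′ end, and capitals mark the match, which is to the opposite strand in both. Gars is at chr6:54987935-54987994 (plus strand) and Tars at chr15:11329414-11329458 (minus strand), both mm9.
Gars: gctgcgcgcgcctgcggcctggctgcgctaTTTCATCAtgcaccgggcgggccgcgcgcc
Tars: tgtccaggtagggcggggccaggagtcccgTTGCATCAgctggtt
In both the core lies close to the 5′ end, 30 bases upstream in Gars and 15 in Tars. Gars had 60 control and 21 knockout PETs and Tars 17 and 10, neither of them called.

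Of 20 listed genes that work with the synthetases, 19 were matched, among them the scaffold proteins of the multisynthetase complex, the mitochondrial amidotransferase and the elongation factors that carry charged tRNA to the ribosome. They had 809 control and 300 knockout PETs, 37.1% of control (32.4 to 42.4%), with fewer PETs in knockout cells at 18 genes and more at 1. The median was 46.9% of control over the genes with control PETs. Scaled to all PETs, 8 were lower and 11 higher (42.1% lower), and scaled outside the pairs with at least 10 PETs, 7 were lower and 12 higher. Of the 13 tested, 0 were called, where 6.49% of all genes tested were, and 2 had an unadjusted p under 0.05, where 17.4% of all genes had (exact binomial test). The most PETs were at Eef1a1, the carrier of charged tRNA in the cytosol, with 293 in control and 90 in knockout cells (adjusted p = 0.108, exact binomial test). Eef1g, a subunit of its exchange factor, had 137 and 60, and Tufm, the mitochondrial counterpart of Eef1a1, 133 and 49. The scaffold genes Aimp1 (12 and 4), Aimp2 (20 and 11) and Eef1e1 (22 and 14) had fewer.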

How the data were processed

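RNA Pol II ChIA-PET interactions of control and Ronin knockout ESCs were used, 1 merged library each. Per the study's methods and the submitters' processing notes, linkers were trimmed with cutadapt, mates were mapped to mm9 with Bowtie 1.1.1, keeping those with a unique best placement, and peaks were called with MACS 1.4.2. The deposited values are PET counts per pair of peaks and per peak, a signed distance in bp (a score), and for each pair a p-value and the same after Benjamini-Hochberg adjustment. Only the PET counts, and the adjusted p-value as a filter in one alternative, were used. How well mates in near-identical copies of a sequence were placed was not tested.

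Anchors were matched to protein-coding genes of GENCODE vM1 on NCBIM37, the same build, and 0 anchors ran past a chromosome end. Each pair was counted once per gene within 1 kb of either anchor. Genes with at least 10 PETs were tested with two-sided exact binomial tests (scipy 1.17.1) against the knockout share of all PETs, adjusted over all of them. Ratios have exact conditional binomial 95% intervals, for counting error only. Anchor sequences of Lars2 pairs were compared with blastn 2.17.0 (E-value limit 1e-5). Every member is described, with values for all, and partners are named for pairs with at least 2 PETs or with 2 synthetase genes. The members and lists were chosen with earlier results of these data known. There were 12 alternatives planned and 2 added after seeing the data. An item that the choice of genes would also have covered is not reported here.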

Additional observations from a re-analysis of the deposited data

How the results depend on the processing

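No paired analysis was possible because each condition has 1 library, and for the same reason no replicate could be left out. Of the values recomputed for the sums, ratios and counts of calls, 43 kept their size, 25 moved and 4 turned in direction. All 4 were the ratio of ratios, mitochondrial over cytosolic, which was 0.863 with anchors at 5′ ends only, 0.822 with intrachromosomal pairs only, 0.849 with intrachromosomal pairs of deposited adjusted p under 0.05 and 0.94 without the Lars2 last-exon anchor, against 1.29. In that order of settings, the ratio of all members was 36.9%, 35.3%, 37.6% and 36.3% of control, and that of mitochondrial members 33%, 30.6%, 33.3% and 34.7%. The members called were 0 of 30 tested at 5′ ends (3 at an unadjusted p under 0.05, exact binomial test), 0 of 8 in each intrachromosomal setting (0 unadjusted) and 1, Lars, without the Lars2 anchor. All genes called were 52 and 49 in the intrachromosomal settings, 2.98% of the genes tested in each. With pairs of at least 2 PETs, the ratios were 60.8% (all members), 28.6% (cytosolic) and 64.4% (mitochondrial), the ratio of ratios 2.25, members called 1 (Yars) of 2 tested, all genes called 315 of 816 (38.6%) and members with fewer PETs after scaling 10. With equal libraries assumed, 22 of 31 members tested and 5737 of 8973 genes (63.9%) were called. With the shares of library-wide PETs over 5 kb, it was 20 of 31 members and 4457 of 8973 genes (49.7%). All of these member calls were lower, and the main setting called 2 members and 582 genes (6.49%). Leaving out the Lars2 anchor and the scaling outside pairs with at least 10 PETs were chosen after seeing the data. On the log2 scale relative to the library share, Lars2 was 0.61 and turned to -0.14 with pairs of at least 2 PETs, -0.65 with equal libraries, -0.33 with library-wide PETs over 5 kb and -0.12 without its last-exon anchor. Lars2 was called lower with equal libraries and with library-wide PETs over 5 kb, and was not called with pairs of at least 2 PETs. The cause of the other changes was not tested. Depth limits the 4 untested members most, since their counts were under 10.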
